A study of Mus musculus with 12 samples.

Results

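The complement genes C1ra, C1s1, C4b, C3, Serping1, Cd55 and Cd59a were followed in hernia-associated fibroblasts (HAFs). They were chosen by name as components and regulators of the complement cascade, and each was looked up by its Ensembl identifier. Of the 7 genes, 6 were found among the 13233 genes with values, and C4b was not analysed here. The HAFs were primary fibroblasts from the lower abdominal muscle (LAM) of Arom hum mice, which carry human aromatase, the enzyme that makes estrogen from androgen, on a bacterial artificial chromosome with the human gene's own promoters. RNA-Seq was done in 4 groups of 3 libraries, all at 48 h. The vehicle group received ethanol and DMSO, and the E2 group 10 nM estradiol (E2). The E2 plus fulvestrant group received 10 nM E2 and 100 nM fulvestrant, and the fulvestrant group 100 nM fulvestrant without E2. Fulvestrant blocks the estrogen receptors and lowers their protein. All cells carried the transgene, were enriched by plating out the adherent cells, were passaged once and starved of serum overnight, and were pretreated for 3 h with fulvestrant or DMSO. Their medium held a small amount of charcoal-stripped serum during treatment. No culture from mice without the transgene was included, and the age of the donor mice for these cultures was not given in the sources used here. The labels number the libraries of each group 1, 2 and 3 without saying whether these are separate animals or cultures, so p-values measure the spread between these libraries, which may be technical.

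Complement is a cascade of plasma proteins that marks cells and microbes for removal. In the classical pathway the proteases C1r and C1s cleave C4 and C2, and the resulting convertase cleaves C3, where all pathways meet. C1 inhibitor (Serping1) blocks C1r and C1s, decay accelerating factor (Cd55) takes the C3 convertases apart, and CD59 stops the membrane attack complex from forming. Liver makes most circulating complement, and fibroblasts are among the tissue cells known to make C3, C1r, C1s and C1 inhibitor themselves.

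Values are normalized read counts, in which each library's reads per gene were divided by 1 factor for that library. Undoing that factor gave library totals over these genes of 18827792 to 44040507 reads (median 31703872), with no gene under 10 reads in any library. Replicate 1 stood apart from replicates 2 and 3 in every group. Across genes, the departures of libraries with the same number from their groups correlated at 0.63 to 0.92 (18 pairs), and the limma fit kept replicate number as a block. With replicate 1 apart in every group, these correlations do not show that replicates 2 and 3 pair by number. Replicates 2 and 3 of a group differed by more than sampling noise, with a chi-square per degree of freedom of 4.30 to 23.5. Pgr, the progesterone receptor gene and a known estrogen target, had 25.4, 85.3 and 104 normalized counts with vehicle and 145, 268 and 304 with E2 (log2 difference 1.88, limma adjusted p = 0.0343). All 10 fibroblast markers looked up were found (summed level 390070 to 636480), as were 2 of 13 macrophage and leukocyte markers (90.7 to 389, in replicate 1 172 to 389). Ptprc, Csf1r and the 3 C1q chains, which macrophages make, were among the markers without values, as were all 8 myogenic markers. As every gene with values had 10 or more reads in each library, a gene without values may still be expressed in some libraries. Below, a gene was called when its Benjamini-Hochberg adjusted p over all 13233 genes was under 0.05 and its fold difference over 1.2. In bulk RNA, fewer cells of a type and less RNA per cell cannot be told apart.

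Per kilobase of exon, C3 had the highest median level of the 6 genes, at 9119 normalized counts per kb over the 12 libraries. C1s1 (4449) and C1ra (2486) followed, then Cd55 (626), Serping1 (562) and Cd59a (115). This order held for replicates 2 and 3 but not for replicate 1. In the 4 replicate 1 libraries C1ra led with 2647 to 3288 normalized counts per kb, C1s1 had 1769 to 3152 and C3 had 450 to 1153. Cd55 and Serping1, neighbours in the order, overlapped in range in both sets of libraries.

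**Figure D1:**
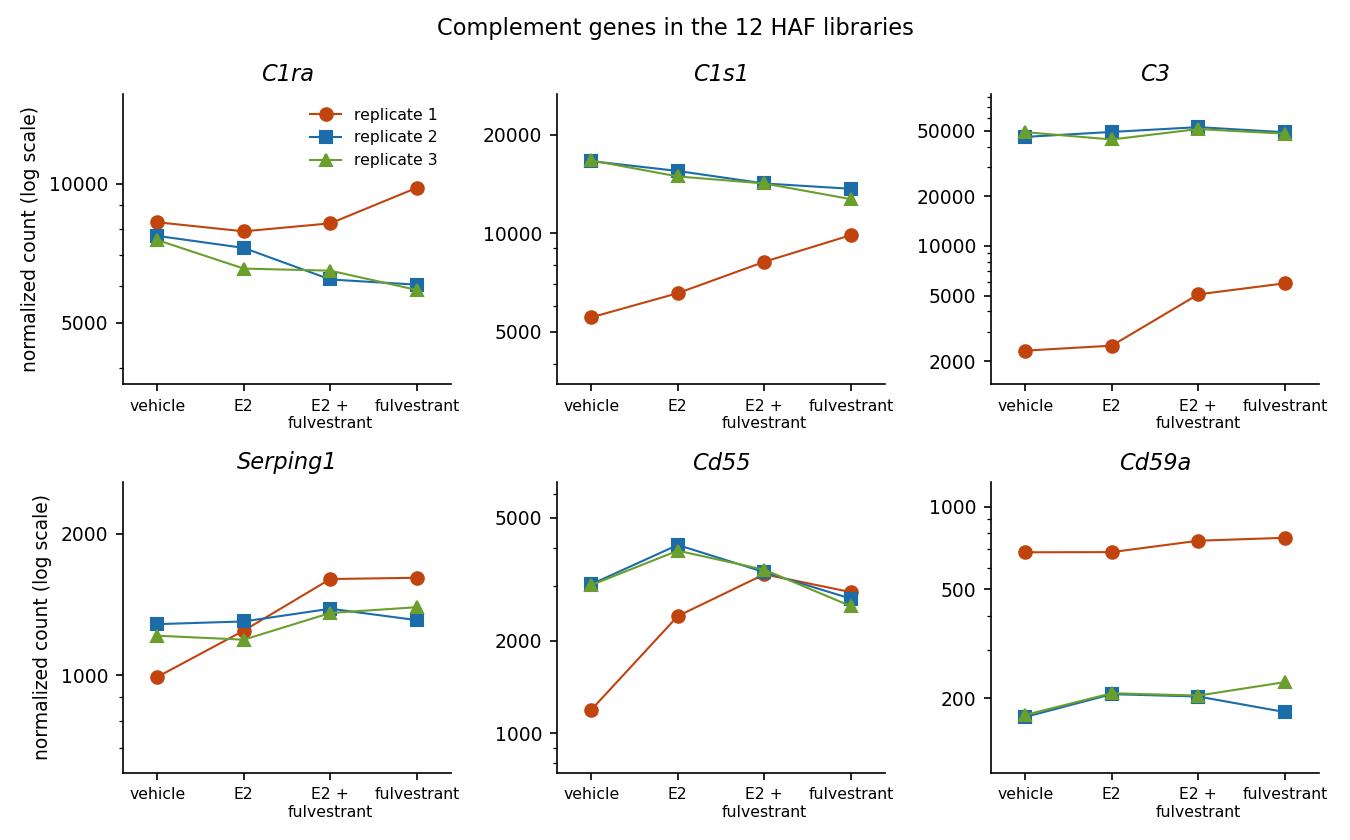
Normalized counts (log scale) of the 6 complement genes in the 12 HAF libraries, by treatment, with points joined within each replicate number. C3 and C1s1 lie lower and Cd59a higher in replicate 1 than in replicates 2 and 3 in every group, while the Serping1 ranges overlap.

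C1ra and C1s1 encode the paired proteases that start the classical pathway. They lie tail to tail on chromosome 6, C1ra at chr6:124512405-124523443 (plus strand, 11 exon blocks) and C1s1 at chr6:124530345-124542359 (minus strand, 12 exon blocks), 6902 bases apart, and neither shares exon sequence with another gene on its strand. C1ra had 8256, 7715 and 7556 normalized counts with vehicle (replicates 1, 2 and 3) and 7891, 7265 and 6554 with E2. It had 8211, 6208 and 6486 with E2 plus fulvestrant and 9803, 6048 and 5892 with fulvestrant. The groups overlapped in each comparison, and replicate 1 was highest in every group.

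C1s1 had 5535, 16588 and 16675 normalized counts with vehicle and 6561, 15481 and 14896 with E2. It had 8178, 14181 and 14181 with E2 plus fulvestrant and 9862, 13660 and 12700 with fulvestrant. Replicate 1 was lowest in every group, and its distance from the others was widest with vehicle and narrowest with fulvestrant. Between replicates, C1s1 was lower in replicate 1 by 1.96-fold in the ratio of means (95% interval of the log2 difference -1.31 to -0.70, limma adjusted p = 7.27e-05) and C1ra was higher by a log2 difference of 0.35 (standard error 0.08, limma adjusted p = 0.00241). The ratio of C1s1 to C1ra per length was 0.639 to 0.959 in replicate 1 and 2.03 to 2.18 in replicates 2 and 3. Thus the partners did not keep 1 ratio across replicates, while C1s1 with its close paralog C1s2 nearly did (C1s2 to C1s1 per length 0.0592 to 0.0684 and 0.0625 to 0.0745). C1rb to C1ra per length was 0.0543 to 0.0621 and 0.0550 to 0.0682. Because these paralogs are alike in sequence, how their reads were split is uncertain.

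C3, the protein that every complement pathway cleaves, lies on chromosome 17 of GRCm38 at chr17:57203970-57228136 on the minus strand (42 exon blocks). The 4 replicate 1 libraries had 2315 normalized counts with vehicle, 2481 with E2, 5081 with E2 plus fulvestrant and 5929 with fulvestrant. Replicates 2 and 3 had 45845 and 48992 with vehicle, 49157 and 44230 with E2, 52555 and 51161 with E2 plus fulvestrant, and 48923 and 47956 with fulvestrant. So the lowest value of replicates 2 and 3 (44230) was far above the highest of replicate 1 (5929). The log2 difference of replicate 1 from replicates 2 and 3 was -3.74 (standard error 0.18, 95% interval -4.13 to -3.35, limma adjusted p = 2.24e-08), and the ratio of the mean counts was 12.3-fold. Of all 13233 genes, 33 had a larger difference. Replicate number held 96.1% of the variance of C3 and treatment 1.64%, against medians of 57.7% and 17.9% over all genes.

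The promoter windows of C3, C1ra, C1s1 and Cd55 are shown because C3 differed most between replicates, C1ra and C1s1 are neighbours that differed in opposite directions, and Cd55 had the largest difference with E2. Each window holds 250 bases before and 50 after a gene start, from RefSeq on GRCm38.p6, and 5 of the 7 genes had an entry. The capitals mark matches, on either strand, to GGTCA (1 arm of the estrogen response element), the C/EBP site (TT, 2 bases of any kind, G, 1 of any kind, AA), the interferon gamma activated site (TTC, 3 bases of any kind, GAA), the interferon stimulated response element (GAAA, 2 bases of any kind, GAAA), the GC box (GGGCGG) or the TATA box (TATAAA). Matches may overlap. C3 is chr17:57228087-57228386 (minus strand), C1ra chr6:124512371-124512670 (plus), C1s1 chr6:124542310-124542609 (minus) and Cd55 chr1:130462695-130462994 (minus).
C3: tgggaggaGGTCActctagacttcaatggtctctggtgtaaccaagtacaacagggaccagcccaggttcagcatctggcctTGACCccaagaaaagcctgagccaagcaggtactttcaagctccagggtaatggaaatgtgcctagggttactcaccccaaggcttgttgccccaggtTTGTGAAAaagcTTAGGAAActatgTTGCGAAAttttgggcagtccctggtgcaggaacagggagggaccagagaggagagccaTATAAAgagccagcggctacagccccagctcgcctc
C1ra: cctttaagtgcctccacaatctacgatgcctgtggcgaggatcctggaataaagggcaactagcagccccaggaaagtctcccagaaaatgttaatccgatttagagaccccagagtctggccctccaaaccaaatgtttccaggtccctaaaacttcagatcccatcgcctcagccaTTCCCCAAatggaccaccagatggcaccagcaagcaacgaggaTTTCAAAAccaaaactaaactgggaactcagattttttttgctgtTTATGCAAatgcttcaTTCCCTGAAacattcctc
C1s1: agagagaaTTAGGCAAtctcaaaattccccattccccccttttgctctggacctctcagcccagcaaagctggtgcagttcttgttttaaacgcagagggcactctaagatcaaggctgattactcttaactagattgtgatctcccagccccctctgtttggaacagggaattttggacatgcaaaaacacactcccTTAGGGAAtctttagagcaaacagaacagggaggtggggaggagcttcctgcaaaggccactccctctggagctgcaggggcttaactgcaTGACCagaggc
Cd55: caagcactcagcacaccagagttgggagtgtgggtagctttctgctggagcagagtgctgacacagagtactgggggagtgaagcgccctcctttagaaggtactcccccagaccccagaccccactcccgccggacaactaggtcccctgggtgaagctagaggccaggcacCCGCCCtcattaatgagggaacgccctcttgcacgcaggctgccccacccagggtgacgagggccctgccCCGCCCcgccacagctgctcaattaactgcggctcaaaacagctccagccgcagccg

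C3 had 3 separate C/EBP matches between positions -70 and -38 from the start, the last of which meets the pattern on both strands, and 2 estrogen response arms. C1ra had 3 C/EBP matches. C1s1 had 2 and 1 estrogen response arm, and its second RefSeq window, chr6:124542272-124542571, held 1 of these C/EBP matches and the same arm. Cd55 had no C/EBP match and carried 2 GC boxes. The C/EBP letters occur in 40.7% of the 32851 promoter windows of this length, the estrogen response arm in 40.5%, the GC box in 35.7%, the TATA letters in 13.6% and the interferon gamma activated site, found in C1ra, in 8.30%. The full estrogen response element (GGTCA, 3 bases of any kind, TGACC) occurs in 0.0700% and was in none of these windows. Cd59a held 1 interferon stimulated response element, which 3.44% of windows hold. These matches describe the letters only.

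Serping1, the gene of C1 inhibitor, lies at chr2:84765387-84775444 on the minus strand. It had 991, 1285 and 1214 normalized counts with vehicle and 1245, 1302 and 1191 with E2. It had 1603, 1386 and 1357 with E2 plus fulvestrant and 1613, 1310 and 1396 with fulvestrant. All 6 libraries with fulvestrant were above all 6 without it, and 4.30% of all genes separated these libraries in this way in either direction. Serping1 was also the only one of the 6 genes not called between replicate 1 and the others (log2 difference 0.04, limma adjusted p = 0.703). Treatment held 57.3% of its variance and replicate number 1.62%.

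Cd55 encodes decay accelerating factor, a membrane protein, and lies at chr1:130439027-130462744 on the minus strand. It had 1193, 3047 and 3029 normalized counts with vehicle and 2403, 4087 and 3916 with E2. It had 3282, 3336 and 3396 with E2 plus fulvestrant and 2874, 2737 and 2588 with fulvestrant. The replicates lay far apart with vehicle and close together with fulvestrant: the SD was 1065 around a mean of 2423 with vehicle (n = 3) and 56.8 around 3338 with E2 plus fulvestrant (n = 3). In replicates 2 and 3 the E2 library was the highest, and in replicate 1 the E2 plus fulvestrant library was. Its paralog Cd55b, whose gene lies 16018 bases away, was not analysed here.

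Cd59a, which guards against the membrane attack complex, lies at chr2:104095801-104115354 on the plus strand, 4614 bases from its paralog Cd59b. It had 683, 171 and 173 normalized counts with vehicle and 684, 207 and 208 with E2. It had 752, 203 and 204 with E2 plus fulvestrant and 771, 178 and 229 with fulvestrant. Every replicate 1 library was above every other library (45.0% of all genes separated so in either direction), with a log2 difference of 1.88 (standard error 0.08, limma adjusted p = 6.59e-09) and a 3.68-fold ratio of the mean counts. Replicate number held 98.3% of its variance.

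Between replicate 1 and replicates 2 and 3, 5 of the 6 genes were called, against 52.4% of all genes. C1ra and Cd59a were higher in replicate 1, and C1s1, C3 and Cd55 (log2 difference -0.50, limma adjusted p = 0.0278) lower. The call of Cd55 was lost in 7 of 19 other fits (limma adjusted p 0.0502 to 0.131), 5 of them leaving out 1 library: any vehicle library, or E2 replicate 1 or 2. Without vehicle replicate 1 the log2 difference of Cd55 was -0.22 (limma adjusted p = 0.131), and without fulvestrant replicate 1 that of C1ra was 0.23, under the fold threshold. In the same contrast, 0 of the 15 acute phase and NF-kB genes found of 20 listed were higher in replicate 1 and 13 were lower (median log2 difference -0.77, all genes -0.02). Of the 17 interferon-inducible genes found of 20, 1 was higher and 8 were lower (median -0.31). Of the 10 fibroblast markers, 2 were higher and 6 lower. The 4 pericyte and smooth muscle markers found of 7 summed to 3600 to 4528 normalized counts in replicate 1 and 2042 to 2733 in replicates 2 and 3 (3 higher, 1 lower), with Rgs5, Kcnj8 and Abcc9 without values. The 2 endothelial markers found of 8 summed to 75.0 to 96.5 and 190 to 298 (both lower), with Pecam1 and Cdh5 without values. The part of these lists in the difference of the complement genes was not tested, and since the sources used here do not say what the replicate numbers stand for, animal, culture and batch cannot be told apart.

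**Figure D2:**
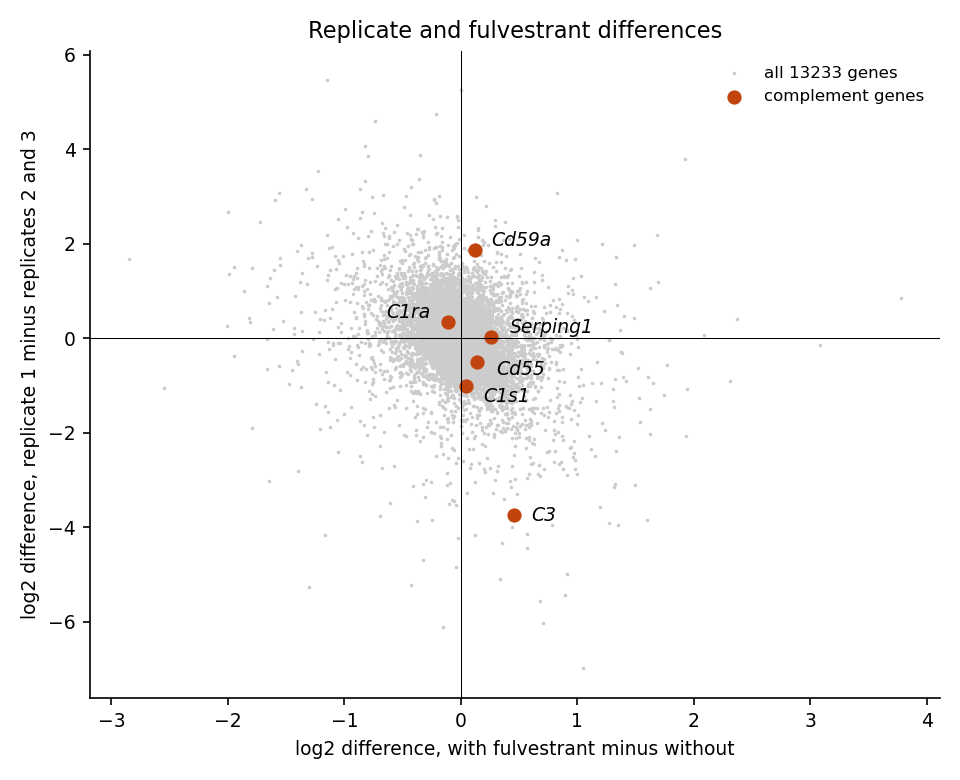
Log2 difference of replicate 1 from replicates 2 and 3 (vertical) against the log2 difference of libraries with fulvestrant from those without (horizontal), for all 13233 genes (grey) and the 6 complement genes (orange). C3 at -3.74 and Cd59a at 1.88 lie furthest from 0 of the 6 genes on the vertical axis, where 33 and 313 of all genes had a larger difference. The 6 genes lie between -0.11 and 0.46 on the horizontal axis.

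E2 was compared with vehicle to ask how estrogen acts on the genes when fulvestrant is absent. With E2, 0 of the 6 genes were called, against 0.0756% of all genes, and Cd55 alone had an unadjusted limma p under 0.05, as did 10.1% of all genes. Cd55 was higher in each replicate number, with log2 differences of 1.01, 0.42 and 0.37, and 0.60 in the fit (standard error 0.24, 95% interval 0.07 to 1.13, limma adjusted p = 0.468). Vehicle replicates 2 and 3 were above E2 replicate 1, so the groups overlapped, as they did for all 6 genes (5.19% of all genes did not overlap). With replicate 1 left out of all groups, Cd55 was called higher with E2 (log2 difference 0.40, standard error 0.05, limma adjusted p = 0.0144), and 0.446% of all genes were called. Of 15 fits that leave out a library or a replicate number, only this 1 called Cd55. Over the 15 the log2 difference of Cd55 ran from 0.23 to 0.80. The other 5 genes had log2 differences from -0.12 (C1ra, 95% interval -0.35 to 0.11) to 0.18 (Cd59a, -0.04 to 0.40). C3 differed by 0.02 with an interval of -0.51 to 0.54, and this fit does not tell a difference within that interval from 0. Without replicate 1, C3 differed by -0.02 (standard error 0.09, 95% interval -0.22 to 0.17).

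**Figure D3:**
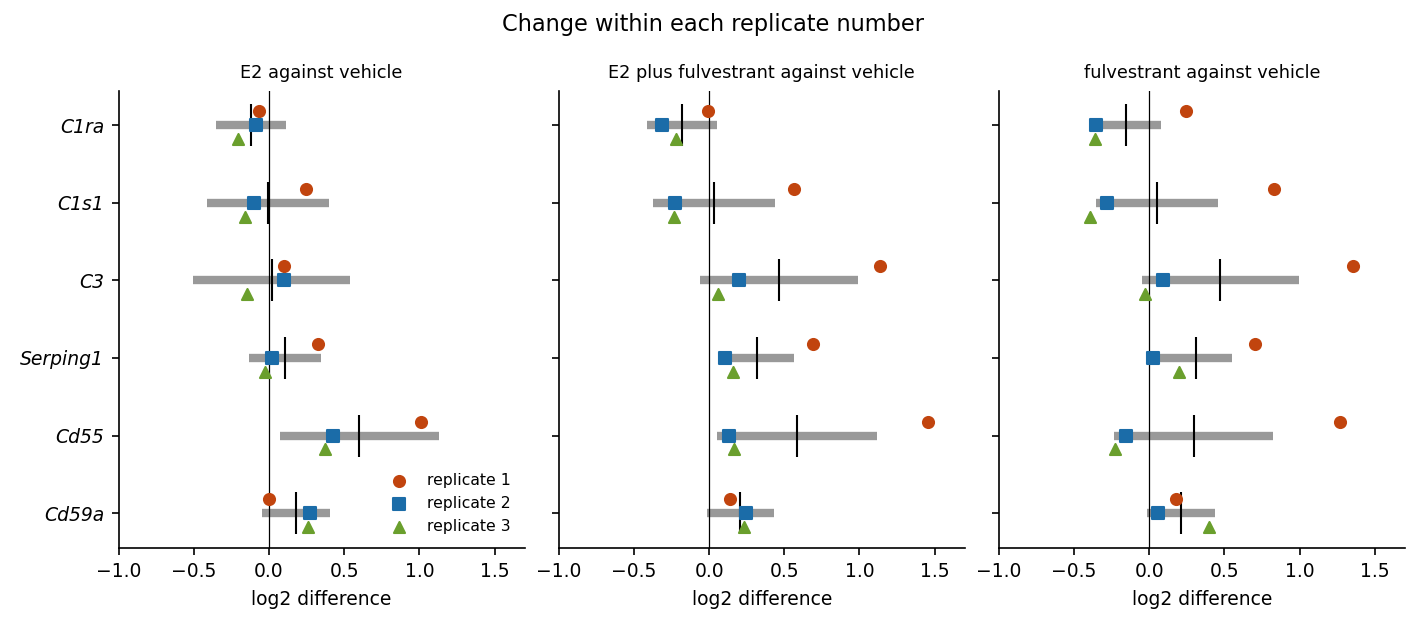
Log2 differences from vehicle with E2, E2 plus fulvestrant and fulvestrant for the 6 complement genes; points are the 3 replicate numbers, black ticks the limma estimate and grey bars its 95% interval. Cd55 is above 0 in all 3 replicates with E2, and with either fulvestrant treatment the replicate 1 point of every gene but Cd59a lies to the right of the other points.

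Fulvestrant with and without E2 was compared with vehicle. With E2 plus fulvestrant 0 of the 6 genes were called, against 12.7% of all genes, and Serping1 and Cd55 had an unadjusted limma p under 0.05, as did 31.2% of all genes. Serping1 had a log2 difference of 0.32 (standard error 0.11, limma adjusted p = 0.0693) and Cd55 of 0.58 (standard error 0.24, limma adjusted p = 0.124). Their values did not overlap with those of vehicle, as was so for 13.9% of all genes. Without replicate 1 the log2 differences were 0.13 for Serping1 (limma adjusted p = 0.241) and 0.15 for Cd55 (limma adjusted p = 0.0993), and over all leave-out fits they ran to 0.43 and 0.81. With fulvestrant alone 0 of 6 were called, against 12.5% of all genes. Serping1 had the single unadjusted limma p under 0.05 (log2 difference 0.31, limma adjusted p = 0.0789; 30.5% of all genes had one), and its values did not overlap, as for 11.1% of genes. C3 differed by 0.46 with E2 plus fulvestrant and 0.47 with fulvestrant, with 95% intervals of -0.06 to 0.99 and -0.05 to 1.00. Without replicate 1 these values of C3 were 0.13 and 0.03 (limma adjusted p = 0.366 and 0.836), and that of Serping1 with fulvestrant was 0.11 (limma adjusted p = 0.282).

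With the 6 libraries with fulvestrant set against the 6 without, 0 of the 6 genes were called, against 15.5% of all genes, and Serping1 and C3 had an unadjusted limma p under 0.05, as did 39.4% of all genes. Serping1 was higher with fulvestrant in 3 of 3 replicate numbers, by 0.53, 0.06 and 0.20, and by 0.26 in the fit (standard error 0.08, limma adjusted p = 0.0269). It passed the adjusted p but fell just short of the fold threshold, at 1.1995-fold against 1.2, and it was called in 7 of 15 fits that leave out a library or a replicate number, with log2 differences of 0.13 to 0.36 over the 15. In the fit without the replicate block Serping1 did not pass the adjusted p (limma adjusted p = 0.159). C3 was higher by 0.46 (standard error 0.17, limma adjusted p = 0.0631), or 2.29-, 1.07- and 1.06-fold in replicate numbers 1, 2 and 3. Without replicate 1 these became 0.13 for Serping1 (limma adjusted p = 0.0844) and 0.09 for C3 (limma adjusted p = 0.305). The remaining 4 genes ran from -0.11 (C1ra) to 0.14 (Cd55), and without replicate 1 Cd55 turned to -0.22 (limma adjusted p = 0.00186) and C1s1 from 0.05 to -0.22 (limma adjusted p = 0.00338), while C1ra went to -0.24 (limma adjusted p = 0.00223), all 3 under the fold threshold.

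E2 was set against E2 plus fulvestrant, and E2 plus fulvestrant against fulvestrant, to hold one of the agents constant. In the first, 0 of 6 genes were called, against 9.60% of all genes, and in limma 0 of the 6 had an unadjusted p under 0.05, against 27.3%. Relative to E2 plus fulvestrant, E2 gave C3 a log2 difference of -0.45 (95% interval -0.97 to 0.08), and Serping1 one of -0.21 (-0.46 to 0.03), with Serping1 alone not overlapping between the groups, as for 12.5% of all genes. Without replicate 1 these were -0.15 for C3 (limma adjusted p = 0.286) and -0.14 for Serping1 (limma adjusted p = 0.230), while Cd55 went from 0.02 to 0.25 (limma adjusted p = 0.0130), under the fold threshold. In the second, 0 of 6 genes and 0.00% of all genes were called by limma, and 0 of the 6 had an unadjusted p under 0.05, against 1.93%. Cd55 was higher with E2 plus fulvestrant than with fulvestrant in 3 of 3 replicate numbers, by 0.19, 0.29 and 0.39, and the groups did not overlap, as for 2.42% of genes (log2 difference 0.29, 95% interval -0.24 to 0.82, limma adjusted p = 1.00). Over all leave-out fits this difference of Cd55 ran from 0.08 to 0.56. The interaction of E2 and fulvestrant was called by limma for 0 of 6 and 0.00% of all genes, with 0 of 6 at an unadjusted p under 0.05, against 3.79%.

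The differences with fulvestrant were not alike across replicate numbers. In replicate 1 the log2 difference of fulvestrant from vehicle was 1.36 for C3, 1.27 for Cd55, 0.83 for C1s1, 0.70 for Serping1, 0.25 for C1ra and 0.18 for Cd59a. In replicates 2 and 3 the mean differences were 0.03, -0.19, -0.34, 0.11, -0.35 and 0.23 for the same genes. So C3 and Serping1 lay further above vehicle in replicate 1, Cd55, C1s1 and C1ra lay on opposite sides of 0, and Cd59a lay above vehicle in both sets. A fit with treatment by replicate 1 terms, chosen after the values were seen, called these genes other than Cd59a for a difference between the replicate sets, against 5.24% of all genes, and 4 of them for E2 plus fulvestrant (not C1ra), against 3.06%. The 5 genes were also called for the 6 libraries with fulvestrant against the 6 without, against 7.86% of all genes, and C3 and Cd55 for E2 against E2 plus fulvestrant, against 1.65%. For E2 against vehicle it called 0 of 6, against 0.00756% of genes, with an unadjusted limma p under 0.05 for Cd55, C1s1 and Serping1, as for 4.57% of all genes. Cd59a was called in none of these comparisons. The fit was prompted by these values, and each of its values rests on 1 replicate 1 library per group, with the spread taken from replicates 2 and 3. Its calls are therefore a description of these libraries and no independent support for a difference. With only replicates 2 and 3, C1ra was called lower with E2 plus fulvestrant (log2 difference -0.27, limma adjusted p = 0.0140, with 13.2% of all genes called) and with fulvestrant (-0.35, limma adjusted p = 0.00253, with 17.5% called). C1s1 was called lower with fulvestrant (-0.34, limma adjusted p = 0.00312).

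Of 57 complement genes looked up, 19 had values: these 6 and 13 others. By role, 6 of 10 classical initiation genes were found, 2 of 9 of the lectin pathway, 2 of 4 central and alternative pathway genes, 1 of 7 terminal components (C8g), 6 of 16 regulators and 2 of 11 receptors. Calr, calreticulin, had the highest median level of the others (7686 normalized counts per kb), and Cd46 the lowest (6.08). C4a, a near copy of C4b, had 38.6 to 137 normalized counts, and how reads were split between these copies is uncertain. Of the 13 others, 8 were higher in replicate 1, 4 were lower and 1 was not called, where 52.4% of all genes were called.

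**Figure D4:**
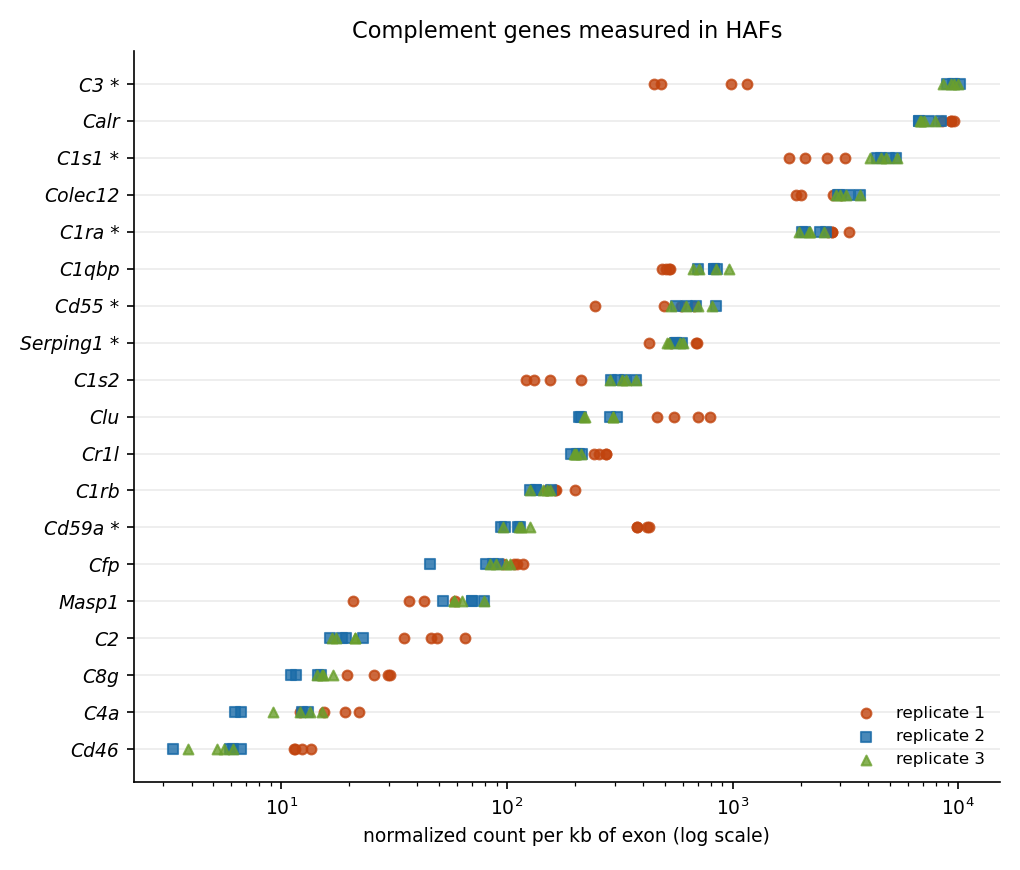
Level of the 19 complement genes with values, in normalized counts per kb of exon (log scale), in the 12 libraries, with colours for replicate numbers and an asterisk for the 6 genes followed here. C3 spans 450 to 10219, with replicate 1 apart from the rest, and Cd59a shows the opposite order.

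With E2 against vehicle 0 of the 13 others were called by limma, against 0.0756% of all genes, and 1 had an unadjusted p under 0.05, against 10.1%. With E2 plus fulvestrant 2 fell and 0 rose, against 12.7% of all genes called, and with fulvestrant 2 fell and 1 rose, against 12.5%. Such small counts say nothing of complement genes as a group. Clu, clusterin, which binds terminal complexes, had a log2 difference of -0.52 with E2 plus fulvestrant (limma adjusted p = 0.00132) and -0.45 with fulvestrant (limma adjusted p = 0.00296). Colec12, a collectin of the scavenger receptor type, had -0.40 (limma adjusted p = 0.0116) and -0.44 (limma adjusted p = 0.00814). Between E2 and E2 plus fulvestrant, Clu was higher with E2 (0.54, limma adjusted p = 0.00133). C1qbp, a protein that binds C1q and is mostly mitochondrial, rose with fulvestrant (0.29, limma adjusted p = 0.0350). Over these 19 complement genes the median log2 difference from vehicle was -0.06 with fulvestrant and 0.01 with E2 plus fulvestrant. For libraries with fulvestrant against those without it was 0.07. The median over all genes was 0.01 in each of these comparisons. Of the 10 fibroblast markers, 4 were called lower with fulvestrant (median log2 difference -0.37) and 3 with E2 plus fulvestrant (median -0.29), against the same 12.5% and 12.7% of all genes. Both Schwann cell markers found of 5 were called lower in the 6 libraries with fulvestrant than in the 6 without (median -0.57, summed level 112 to 223), against 15.5% of all genes. The part of these markers in the differences was not tested.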

How the data were processed

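RNA-Seq values of 12 HAF libraries were used, in the 4 groups of 3 that the labels give. Per the study's methods and the submitters' processing notes, reads were cleaned with Trimmomatic 0.39 and SortMeRNA (ribosomal reads) and placed on mm10 by STAR 2.5.2. Strand-aware counts per gene came from HTSeq 0.13.5, counts under 10 were dropped, and DESeq2 1.37 did the normalization. What the authors deposited is a normalized signal, counts divided by 1 factor per library. The methods also name a batch adjustment, yet the values separate by replicate number. Of 13233 identifiers, 13154 were given a symbol and position from GENCODE M21 on GRCm38 (mm10).

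Log2(value + 1) of all genes was fitted with limma 3.58.1 in R 4.3.3, with terms for treatment and replicate number and a variance trend (6 residual degrees of freedom). Adjusted p-values are Benjamini-Hochberg values across the 13233 genes. Adding 1 slightly understates differences of low genes. The replicate number was kept as a block because the genes were to be paired by it and the study's methods name a batch adjustment. Earlier results of these data had also shown libraries to separate by number. In a later check, libraries sharing a number departed from their groups in the same way in each of 18 pairs (correlation 0.63 to 0.92). With replicate 1 apart in every group, this does not show that numbers 2 and 3 each mark a pair. Tables and plots were made with Python 3.11.15, pandas 2.3.3 and matplotlib 3.10.9. The fit was tested on simulated data in which each change was the same in all replicate numbers. That test does not cover changes that differ between replicate numbers.

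The members and the gene lists were chosen with earlier results of these data known. Named genes were the members, complement genes called in any comparison, and Pgr. A further item is not reported here. The alternatives were the replicate block, the groups in the fit, the pseudocount, a filter on mean values, the variance trend, CPM, quantile normalization, the fold threshold and leaving out libraries. Intervals are at 95%.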

Additional observations from a re-analysis of the deposited data

Results flagged for a closer look

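The change of 5 of the genes between treatments differed between replicate 1 and replicates 2 and 3 in the limma fit with treatment by replicate 1 terms, chosen after the values were seen. The values are log2 differences, as the change in replicate 1 minus the change in replicates 2 and 3. With E2 plus fulvestrant against vehicle the difference was 1.31 for Cd55, 1.00 for C3, 0.79 for C1s1 and 0.56 for Serping1, where 3.06% of all genes were called. With fulvestrant against vehicle it was 1.46 for Cd55, 1.33 for C3, 1.17 for C1s1, 0.60 for C1ra and 0.59 for Serping1, where 5.24% were called. With E2 against E2 plus fulvestrant it was -0.88 for C3 and -0.70 for Cd55, where 1.65% were called. With all libraries with fulvestrant against those without it was 1.10 for C3, 1.08 for Cd55, 0.79 for C1s1, 0.41 for Serping1 and 0.39 for C1ra, where 7.86% of all genes were called. These comparisons share libraries and replicate 1 is a single library in each group, so the 16 values are not independent. The fit was prompted by the values it tests and is no independent support for them. Groups of 3 libraries are too small for a check of single outlying libraries.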

How the results depend on the processing

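In the fits without the replicate block, the numbers pairing the libraries were ignored and 0 of the 6 genes were called in each treatment comparison, as with the block; the standard error of C3 for E2 against vehicle went from 0.24 to 1.59, and the block changed no other call of these genes. Counts of called genes moved from 0 in these fits. Leaving out libraries or replicate numbers gave 0 to 1 for E2 against vehicle, 0 to 1 for E2 plus fulvestrant against vehicle, 0 to 2 for fulvestrant against vehicle and 0 to 2 for libraries with fulvestrant against those without. The last count was also 1 with no fold threshold (Serping1) and 1 with a block of replicate 1 against 2 and 3 (C3, limma adjusted p = 0.046), and C3 was called without vehicle replicate 3 (limma adjusted p = 0.0473). Without fulvestrant replicate 1, Serping1 was called with E2 plus fulvestrant (limma adjusted p = 0.0445) and C1ra with fulvestrant (limma adjusted p = 0.0127). With all libraries, 0.0756%, 12.7%, 12.5% and 15.5% of all genes were called in these comparisons, in the order first given. Without replicate 1, 0.446%, 13.2% and 17.5% were called with E2, E2 plus fulvestrant and fulvestrant against vehicle. The shares in the other fits are not given here, so the counts are not set against them. Between replicate numbers, the alternatives called between 4 and 5 of the 6 genes, Cd55 being lost in 7 and C1ra in 1. In that contrast 52.4% of all genes were called with all libraries.

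Some directions turned, all of values not called with all libraries. By CPM, C1s1 with E2 plus fulvestrant against vehicle became -0.0114, as it did by quantile normalization (-0.0136), and C3 with E2 against vehicle became -0.0135. CPM moved the median of all genes by -0.0417 and -0.0291 in these comparisons, about as much as it moved these genes, and quantile normalization by -0.0088 in the first. By quantile normalization, C3 (0.0244) and Cd59a (0.0051) with E2 plus fulvestrant against fulvestrant turned. Over the fits that leave out a library or replicate number, log2 differences with E2 against vehicle ran from -0.27 to 0.14 for C1s1, -0.25 to 0.24 for C3 and -0.0577 to 0.20 for Serping1. With E2 plus fulvestrant against vehicle, C1s1 ran from -0.23 to 0.18. With fulvestrant against vehicle, C1s1 ran from -0.34 to 0.28 and Cd55 from -0.19 to 0.56. With E2 against E2 plus fulvestrant, they were -0.0213 to 0.13 for C1ra, -0.12 to 0.10 for C1s1, -0.12 to 0.25 for Cd55 and -0.0934 to 0.0449 for Cd59a. With E2 plus fulvestrant against fulvestrant, they were -0.11 to 0.14 for C1ra, -0.17 to 0.24 for C1s1, -0.18 to 0.31 for C3, -0.0809 to 0.11 for Serping1 and -0.10 to 0.0761 for Cd59a. With fulvestrant against without, C1s1 ran from -0.22 to 0.19 and Cd55 from -0.22 to 0.32. The cause of the changes other than by CPM was not tested. The planned count models, edgeR and DESeq2, were not run, and all fits used the normalized values.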

Other observations

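The interferon-inducible and acute phase genes, 2 groups that often move with complement in other settings, were counted beside the complement genes with limma. Of 17 interferon-inducible genes, 9 were called lower and 0 higher with fulvestrant against vehicle (median log2 difference -0.37), and 7 lower and 0 higher with E2 plus fulvestrant (median -0.28). In the same comparisons 12.5% and 12.7% of all genes were called, with medians of 0.01. With E2 against vehicle 0 were called, against 0.0756% of all genes, and 1 had an unadjusted limma p under 0.05, against 10.1%. Of 15 acute phase and NF-kB genes, 4 were called higher and 2 lower with E2 plus fulvestrant against vehicle (median 0.26), and 2 higher and 2 lower with fulvestrant (median 0.17), against the same 12.7% and 12.5% of all genes. These lists were chosen with earlier results of these data known, and their counts carry no test of the list.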
